A study of Ricinus communis with 18 samples.

Results

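Peroxidase genes of castor roots were picked by product name. A gene was taken when its description held the word peroxidase and none of the terms that mark ascorbate, glutathione, thioredoxin, phospholipid or lipid hydroperoxide enzymes, peroxiredoxins and dismutases. The rule took 80 of the 21332 genes of the table. Of these, 73 carried the KEGG entry K00430, the plant peroxidase, and are called class III peroxidases here. The other 7 were named as haloperoxidase-related or bromoperoxidase genes, carried no such entry and do not belong to class III. They are counted as members and described apart.

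Class III peroxidases are heme enzymes of plants that are secreted to the cell wall and the apoplast. With hydrogen peroxide they oxidise phenolic substrates, which couples lignin monomers, phenolics of suberised walls and extensins, the structural wall glycoproteins, and so stiffens the wall. They can also form reactive oxygen in the wall, and in roots they act in lignifying xylem and in the Casparian strip, the lignin barrier of the endodermis.

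RNA of whole root systems of castor (Ricinus communis) was sequenced with an mRNA library kit, in 6 groups of 3 libraries. Roots were kept without PEG-6000 for 3, 7 or 11 days, or were held under 15% PEG-6000, a polymer that lowers the water potential around the root, for 3 or 7 days. The last group had spent 4 days free of PEG after the stress and is called rehydrated; it was set against untreated roots of 11 days. No cultivar, transgene or further agent is given in the labels, and whether replicate libraries stem from different plants is not stated, so that p-values measure the spread between libraries, which may be technical. Library totals ran from 6607760 to 10817476 estimated counts, and each library differed from the others of its group by more than counting noise. Levels are given in FPKM (fragments scaled to gene length and to the library total). Changes are log2 ratios with their standard error (SE) from edgeR's quasi-likelihood test, which scales by TMM (trimmed mean of M values). The scaling alone shifted log2 changes against FPKM ratios by 0.44 at 3 days, by 0.25 at 7 days and by -0.07 at 11 days. A gene was called when its p-value, adjusted by Benjamini and Hochberg over the 16085 genes tested, lay below 0.05, and a call by edgeR means this fit with all 18 libraries unless another setting is named. Whether groups of libraries overlapped was read in FPKM unless the TMM scale is named. Of the 80 members 60 had enough counts to be tested, 55 of them in class III.

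Genes picked by product name as markers of root, shoot and phloem were measured first. The root list took in all genes named scarecrow-like, beside SCARECROW, SHORT-ROOT, Casparian strip membrane proteins and high-affinity nitrate transporters. It also held ROOT HAIR DEFECTIVE 3 genes and root meristem growth factors. Whether these genes are particular to roots was not tested, so their sum is not a measure of root content. The 38 root tissue genes summed to between 881 and 1552 FPKM in the untreated libraries, to between 535 and 581 FPKM in PEG roots at 3 days, to between 731 and 1143 FPKM at 7 days and to between 838 and 1132 FPKM after rehydration. The most abundant of them, high-affinity nitrate transporter 2.1-like (ncbi_8275206), had a mean of 449 FPKM in untreated roots of 3 days and of 19.8 under PEG. Another gene of that name (ncbi_8275209) had means of 42.2 and 0.41 FPKM. The lower sum of the root genes at 3 days was in large part that of these transporters. The 30 shoot tissue genes, for chlorophyll binding proteins, photosystem proteins and small chains of ribulose bisphosphate carboxylase, summed to between 327 and 929 FPKM in untreated roots, to between 763 and 1774 FPKM under PEG at 3 days, to between 2231 and 2792 FPKM at 7 days and to between 473 and 796 FPKM after rehydration. The 13 phloem genes summed to between 70.4 and 125 FPKM in untreated roots, to between 40.8 and 48.3 FPKM under PEG at 3 days, to between 48.4 and 58.3 FPKM at 7 days and to between 72.4 and 93.8 FPKM after rehydration. At 3 days edgeR called 8 of 32 tested root genes lower and 1 higher, 8 of 28 shoot genes higher and 5 of 12 phloem genes lower, where 11.7% of all genes tested were higher and 11.4% lower. With library totals as the scaling, 13 root and 7 phloem genes were lower and 2 shoot genes higher, beside 4157 of the 16085 genes tested lower and 912 higher. At 7 days it called 1 root gene and 21 shoot genes higher and 2 phloem genes lower, beside 2.59% of all genes higher and 1.46% lower. With library totals these were 0 root genes, 16 shoot genes and 4 phloem genes, beside 188 of all genes tested higher and 450 lower. After rehydration edgeR called none in these lists, with 4, 3 and 1 at an unadjusted p under 0.05 and 0 by DESeq2. A gene named for root meristem growth factor 6 was at 0 in all 18 libraries. In whole roots, fewer cells of a type and less RNA per cell cannot be told apart. The part of these tissue markers in the peroxidase results was not tested.

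The family was carried by few genes. Over all 18 libraries, 10 class III genes had a mean level of 100 FPKM or more, 21 lay between 10 and 100, 21 between 1 and 10, and 21 below 1. The 3 most abundant genes, peroxidase 5-like (ncbi_8262435), peroxidase 12-like (ncbi_8283187) and peroxidase 42 (ncbi_8284199), held between 52% and 82.7% of the summed FPKM of the family in each library. The 12 most abundant held between 87.0% and 94.7%. Many members lie side by side in the RefSeq gene table of castor, where 32 of them fall into 11 runs with at most 2 other genes between neighbours. Within a run the most abundant copy held between 54.1% and 99.9% of the summed mean level. Peroxidase 12-like (ncbi_8283187) held 99.9% in its pair, and cationic peroxidase 1-like (ncbi_8269361) held 98.9% in its run of 3. The longest run holds 7 genes named lignin-forming anionic peroxidase-like, and its leading copy (ncbi_8265439) took 70.9%. Such neighbours can be near-identical copies, and how reads shared between copies were assigned is not given in the sources used here, so the split within a run is uncertain.

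The summed FPKM of the 73 class III genes was lower in all 3 treated groups than in the matched untreated roots. At 3 days it was 8705, 10193 and 8562 in untreated libraries 1, 2 and 3, and 6089.8, 4897 and 6363 under PEG. At 7 days the untreated sums were 10249, 8984 and 9329 and the PEG sums 7359, 8163 and 8776. At 11 days the untreated sums were 11066, 10818 and 11201 and the rehydrated ones 9679, 7333 and 10749.7. The groups did not overlap at any of the 3 times, and the exact two-sided permutation test gave p = 0.1 each time, the smallest value that 3 against 3 libraries allow. On the TMM scale the groups were separate at 3 days only. With CPM (counts scaled to the library) on the TMM scale, the PEG mean was 0.848 of the untreated mean at 3 days without overlap (p = 0.1, exact permutation), 0.997 at 7 days with overlap (p = 0.9, exact permutation) and 0.792 after rehydration with overlap (p = 0.2, exact permutation).

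**Figure D1:**
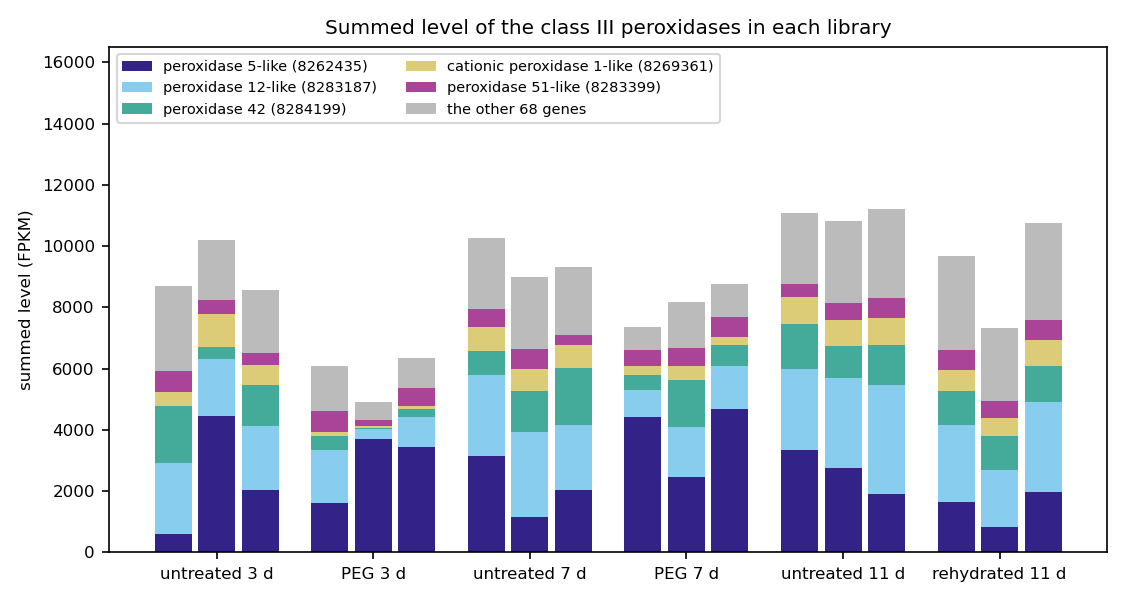
Stacked bars of the summed FPKM of the 73 class III peroxidases in each of the 18 libraries, with the 5 most abundant genes in colour and the other 68 in grey. The PEG libraries of 3 days sum to between 4897 and 6363 FPKM, below the untreated ones of that day at 8562 to 10193, and peroxidase 5-like makes up most of the bar in PEG library 2 of 3 days.

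A large part of the sum was a single gene, peroxidase 5-like (ncbi_8262435). Its FPKM was 598, 4441 and 2036 in untreated libraries 1, 2 and 3 at 3 days and 1621, 3698 and 3436 under PEG. The values of 7 days were 3145, 1148 and 2036 without PEG and 4413, 2475 and 4690.4 with it. At 11 days it was 3337, 2739.8 and 1916 in untreated and 1633, 823 and 1976 in rehydrated roots. The groups overlapped at each time in FPKM, and the untreated libraries of 3 days had the widest range of the 6 groups. On the TMM scale the rehydrated libraries, at 1576.0, 878 and 1975 CPM, lay below the untreated ones at 3076, 3019 and 2246, a ratio of 0.531 (p = 0.1, exact permutation, the smallest possible). The fitted log2 changes were 0.74 ± 0.56 (SE; 95% interval -0.36 to 1.84) at 3 days, 1.17 ± 0.57 at 7 days and -0.91 ± 0.56 after rehydration, with edgeR adjusted p-values of 0.35, 0.22 and 0.64. This gene made up between 6.87% and 43.6% of the family's FPKM in untreated roots of 3 days and between 26.6% and 75.5% under PEG. Without it, the TMM-scaled sum under PEG was 0.576 of the untreated one at 3 days (overlapping, p = 0.2, exact permutation), 0.671 at 7 days (no overlap, p = 0.1, exact permutation) and 0.870 after rehydration (overlapping, p = 0.4, exact permutation).

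At 3 days of PEG, 6 of the 55 tested class III genes fell and 0 rose in edgeR's quasi-likelihood test. That is 10.9% called, beside 23.1% of all genes tested, of which 11.4% were lower and 11.7% higher. The share of class III genes that fell was thus near that of all genes, while none was among the higher ones. Beside the 0 higher, 14 class III genes had an unadjusted p under 0.05 in either direction, and DESeq2 called 2 of the 60 members higher and 11 lower, with 28.3% of all genes called. The median log2 change was -0.76 in class III and -0.08 over all genes tested, with 35 class III genes below 0 and 20 above. The median over the 60 tested members was -0.55, and it was -0.02 without untreated library 1 of 3 days, -0.90 without PEG library 1 and -0.99 with library totals as the scaling. The median over all genes tested was -0.01 without untreated library 1, -0.11 without PEG library 1 and -0.52 with library totals.

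Cationic peroxidase 1-like (ncbi_8269361) was the most abundant gene that fell. It stood at 462, 1086 and 643 FPKM in untreated libraries 1, 2 and 3 of 3 days and at 115, 67.5 and 105 under PEG. All 3 PEG libraries lay far below the lowest untreated one, a log2 change of -2.50 ± 0.32 (edgeR adjusted p = 0.00023). After 7 days the levels were 775, 711 and 721 without PEG and 293, 485 and 276 with it, again without overlap, but the change of -0.83 ± 0.31 was not called (edgeR adjusted p = 0.13; limma at an offset of 1, -1.11, adjusted p = 0.048). At 11 days untreated roots held 890.4, 845 and 894 FPKM and rehydrated roots 703, 562 and 873, with overlap and a change of -0.38 ± 0.31. The untreated libraries of 7 and 11 days lay close together, between 711 and 894 FPKM. Its run neighbour of the same name (ncbi_8269359) was listed at 0, 0 and 0.17 FPKM under PEG at 7 days, beside 0.54, 1.63 and 3.1 without it, a change of -4.43 ± 1.40 that was not called (edgeR adjusted p = 0.08). It was called in DESeq2 (-4.73, adjusted p = 0.019) and in limma at an offset of 0.1 (-3.45, adjusted p = 0.034).

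Peroxidase 21 (ncbi_8284550) stood low under PEG and high after rehydration. It was at 704, 356 and 334 FPKM in untreated and 64.1, 26.8 and 71.2 in PEG roots at 3 days, a log2 change of -2.66 ± 0.44 (edgeR adjusted p = 0.0011). At 7 days the values were 657, 423 and 259 without PEG and 96.4, 181 and 243 with it. At 11 days they were 477, 443 and 230.3 in untreated and 981, 704 and 728 in rehydrated roots. The groups did not overlap at any of the 3 times, with the PEG libraries lower and the rehydrated ones higher than untreated ones, though on the TMM scale the groups of 7 days overlapped. The changes at 7 days (-1.13 ± 0.42, edgeR adjusted p = 0.12) and after rehydration (1.02 ± 0.42, edgeR adjusted p = 0.44) were not called. The rehydration effect exceeded the PEG effect of 7 days by 2.15 ± 0.59, which missed the threshold in edgeR (adjusted p = 0.078) and passed it in DESeq2 (2.16, adjusted p = 0.014).

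Peroxidase 10-like (ncbi_8283272) had the largest called decrease of the family. It stood at 67.4, 30.1 and 82.0 FPKM in untreated roots of 3 days and at 9.19, 2.04 and 2.49 under PEG. The change was -3.27 ± 0.55 (edgeR adjusted p = 0.0012), with every PEG library below every untreated one. After 7 days it stood at 96.4, 94.5 and 72.4 FPKM without and 19.3, 52.5 and 30.1 with PEG, a change of -1.16 ± 0.50 that was not called (edgeR adjusted p = 0.18). After rehydration, 50.4, 45.7 and 35.7 FPKM overlapped with 34.1, 63.2 and 38.9 in untreated roots. Peroxidase 10 (ncbi_8267238), which shares its number, fell by 2.19 ± 0.40 at 3 days (edgeR adjusted p = 0.0019). Its libraries went from 64.3, 168 and 118 to 23.9, 14.9 and 18 FPKM without overlap. At 7 days its 88.8, 61.3 and 116 FPKM stood against 38.2, 32.4 and 43.8 under PEG, a change of -0.95 ± 0.38 that was not called (edgeR adjusted p = 0.15).

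Peroxidase 47 (ncbi_8285000) was the only member called at both times of PEG in edgeR. The Arabidopsis gene of this number is linked to lignifying vessels. Castor roots of 3 days held 25.4, 38.1 and 29.9 FPKM without PEG and 10.3, 9.37 and 6.93 with it. At 7 days they held 29.6, 26.9 and 41.7 FPKM without and 7.11, 13.2 and 12.7 with PEG. The PEG libraries of both days lay below all untreated ones, with log2 changes of -1.37 ± 0.29 (edgeR adjusted p = 0.0046) and -1.34 ± 0.29 (edgeR adjusted p = 0.023). The rehydrated libraries, at 20.4, 33.5 and 31.3 FPKM, overlapped with the untreated ones of 11 days at 25.2, 33.2 and 24.7 (-0.03 ± 0.28). The call at 7 days was lost in 5 of the 6 fits that left out 1 library of that comparison, with adjusted p-values up to 0.144.

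Peroxidase 11 (ncbi_8264618) was called on low levels. It held 2.48, 0.88 and 1.98 FPKM in untreated roots of 3 days and 0.16, 0.17 and 0.40 under PEG, a change of -2.31 ± 0.77 (edgeR adjusted p = 0.041). The groups did not overlap, but 5 of 6 fits that left out 1 library lost the call, with adjusted p-values up to 0.131. Roots of 7 days held 1.01, 1.74 and 1.89 FPKM without and 0.47, 0.91 and 0.18 with PEG (-1.26 ± 0.70, edgeR adjusted p = 0.28).

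**Figure D2:**
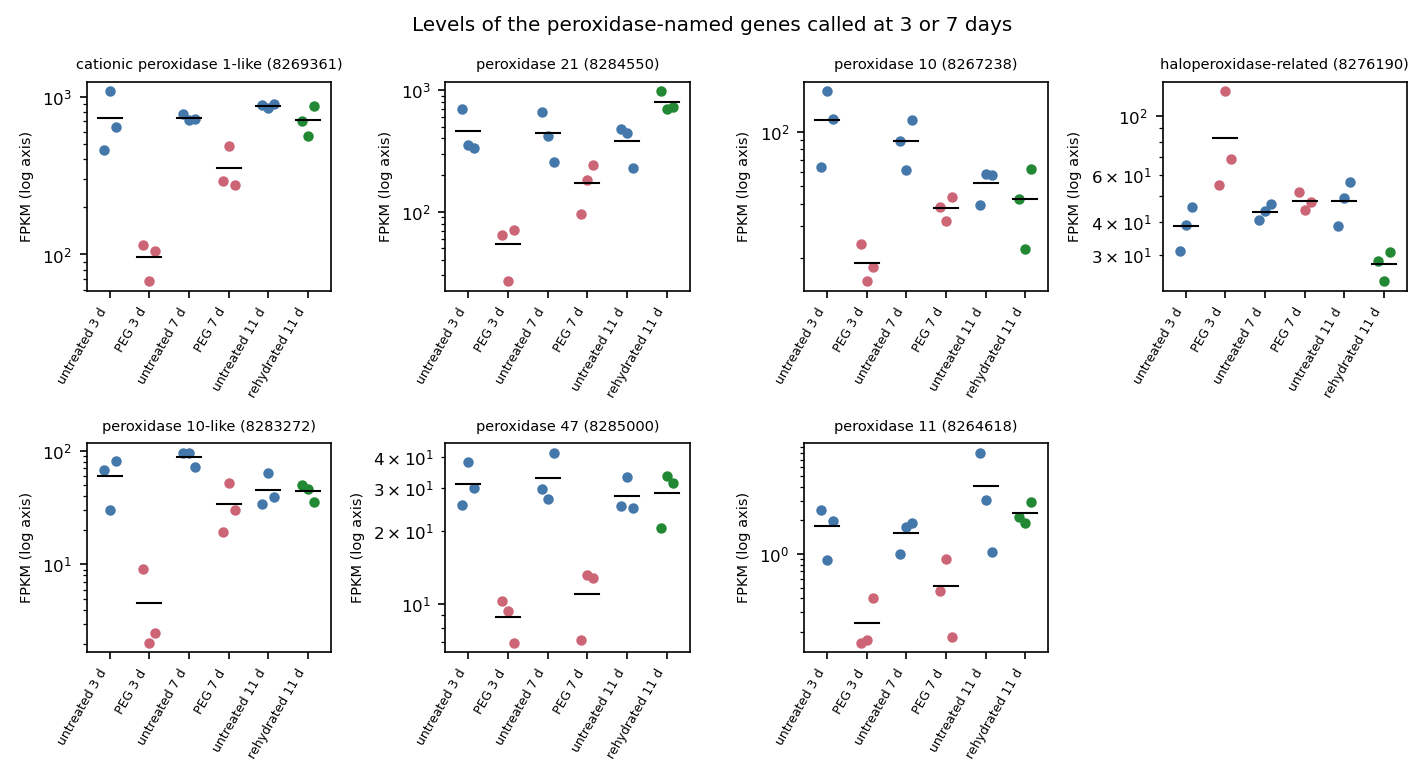
FPKM on a log axis of the 7 peroxidase-named genes called at 3 or 7 days, with 1 point per library and a bar at the mean of 3 libraries in each group. In the 6 class III genes the PEG libraries of 3 days lie below all untreated ones of that day, while the haloperoxidase-related gene (ncbi_8276190) has its PEG libraries of 3 days above them.

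The abundant members that were not called differed in how their libraries fell. Peroxidase 12-like (ncbi_8283187) stood at 2305, 1869.8 and 2089 FPKM in untreated roots of 3 days and at 1729.9, 316 and 971 under PEG. It stood at 2632, 2788 and 2118 FPKM at 7 days and at 885, 1610.5 and 1400.2 under PEG. The FPKM ranges did not overlap at either time, while on the TMM scale those of 3 days did, and the changes were -0.62 ± 0.42 and -0.73 ± 0.42 (edgeR adjusted p = 0.30 at both times). Without PEG library 1 of 3 days the change was -1.28 with an edgeR adjusted p of 0.032, and limma on log2(FPKM + 1) called the gene at 3 days (-1.36, adjusted p = 0.029). At 11 days its 2666, 2969 and 3553 FPKM overlapped with 2541, 1879 and 2948 in rehydrated roots.

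In Arabidopsis the peroxidase of number 42 is expressed broadly. The castor gene of that number (ncbi_8284199) went from 1869, 382 and 1353 FPKM to 459, 33.8 and 264 at 3 days. The groups overlapped through untreated library 2, and the change of -1.81 ± 0.69 missed the threshold (edgeR adjusted p = 0.068). It was called in DESeq2 (-1.77, adjusted p = 0.027), with library totals (-2.25, edgeR adjusted p = 0.026) and without untreated library 2 (-2.22, edgeR adjusted p = 0.032). At 7 days its 807, 1325 and 1883 FPKM overlapped widely with 499, 1528 and 671 under PEG (-0.37 ± 0.67). Peroxidase 51-like (ncbi_8283399) showed no such drop. It held 687, 463 and 385 FPKM in untreated and 679, 201 and 605 in PEG roots at 3 days, and its changes were 0.39 ± 0.39, 0.33 ± 0.39 and 0.12 ± 0.39 at the 3 times.

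Peroxidase 3 and peroxidase 3-like lie in 1 run. The Arabidopsis gene of this number is known to rise in cold and in drying. Numbers here are those of product names, and whether they mark the matching Arabidopsis genes was not tested. The deposited symbol of peroxidase 3-like (ncbi_8277730) was PER39. Peroxidase 3 (ncbi_8277731) held 201, 116 and 248 FPKM in untreated and 81.6, 23.4 and 71.1 in PEG roots at 3 days, without overlap. Its change of -1.25 ± 0.47 was not called (edgeR adjusted p = 0.066) but was in DESeq2 (-1.22, adjusted p = 0.041). At 7 days it held 137, 173 and 297 FPKM without PEG and 54.1, 139.9 and 63.8 with it (-1.01 ± 0.47, edgeR adjusted p = 0.20). Peroxidase 3-like (ncbi_8277730) went from 209, 61.6 and 224 FPKM to 97.7, 5.97 and 59.5 at 3 days, overlapping, with a change of -1.17 ± 0.73. The other 3-like copy of the run (ncbi_8277729) was not tested, with 6 counts in all 18 libraries.

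Further abundant genes were not called at 7 days. Peroxidase N1-like (ncbi_8258720), named after a tobacco peroxidase, held 189.7, 152 and 360.5 FPKM in untreated roots of 7 days and 66.3, 145 and 59.9 under PEG. The groups lay just apart, with a change of -1.13 ± 0.53 (edgeR adjusted p = 0.21), while at 3 days the change was 0.00 ± 0.52. A gene named only class III peroxidase (ncbi_8261036) held 216, 197 and 133 FPKM in untreated and 50.5, 106 and 87.0 in PEG roots of 7 days (-0.95 ± 0.36, edgeR adjusted p = 0.13). Peroxidase 63-like (ncbi_107261130) overlapped at each time, with changes of -0.76 ± 0.51, -0.03 ± 0.51 and 0.71 ± 0.51.

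Members numbered after Arabidopsis genes of lignified walls were also read library by library. In Arabidopsis the peroxidase of number 64 acts in the Casparian strip and that of number 72 in lignin formation. Peroxidase 72-like (ncbi_8279126) held 146, 36.7 and 70.1 FPKM in untreated libraries 1, 2 and 3 of 3 days and 65.0, 3.95 and 28.4 under PEG. At 7 days it held 56.8, 108 and 92.4 FPKM without PEG and 15.1, 69.2 and 32.6 with it. The groups overlapped at both times, since libraries of the same group differed widely. The changes were -0.92 ± 0.72, -0.96 ± 0.72 and -0.95 ± 0.72 at 3, 7 and 11 days.

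Peroxidase 64 (ncbi_8267824) held 8.03, 0.20 and 3.22 FPKM in untreated roots of 3 days and 0.73, 0 and 0.60 under PEG (-2.60 ± 1.16, edgeR adjusted p = 0.11; DESeq2 -2.61, adjusted p = 0.043). Its values of 7 days were 3.65, 10.7 and 4.74 FPKM without PEG and 0.18, 4.91 and 3.52 with it (-0.99 ± 0.98). Peroxidase 64-like (ncbi_8268089) held 23.6, 1.13 and 4.69 FPKM in untreated and 3.76, 0.09 and 0.79 in PEG roots of 3 days (-2.19 ± 1.09, edgeR adjusted p = 0.15; -3.93, adjusted p = 0.044 without PEG library 1). Both genes were lowest in PEG library 2 of 3 days and in PEG library 1 of 7 days. At 7 days peroxidase 64-like held 3.50, 10.5 and 7.00 FPKM without PEG and 0, 2.36 and 0.79 with it, without overlap but not called (-2.54 ± 1.13, edgeR adjusted p = 0.19). After rehydration it held 22.0, 10.2 and 10.4 FPKM beside 3.98, 8.20 and 8.72 in untreated roots (0.89 ± 1.01).

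The same libraries stood apart in the markers of xylem secondary walls, 7 genes for cellulose synthase subunits of secondary walls, COBRA-like protein 4 and xylem proteinases. Their summed FPKM was 142, 28.0 and 52.5 in untreated libraries 1, 2 and 3 of 3 days and 82.5, 2.76 and 28.7 under PEG. The sums of 7 days were 41.2, 77.8 and 64.9 without and 6.14, 37.2 and 12.9 with PEG. Those of 11 days were 30.4, 65.2 and 96.9 in untreated and 121, 93.2 and 88.2 in rehydrated roots. At 3 days the order of libraries within each group was that of peroxidase 72-like, 64 and 64-like. It was also that of members not numbered after wall genes, among them peroxidase 12-like (ncbi_8283187), 16-like (ncbi_8278026), 61 (ncbi_8278124) and 9 (ncbi_8275780). Others, such as cationic peroxidase 1-like (ncbi_8269361), did not have it. The order was thus not particular to the wall genes. The median change of the 6 tested xylem genes was -0.64 at 3 days, -1.87 at 7 days and 0.83 after rehydration. None passed the edgeR threshold at these times, with 0, 2 and 0 at an unadjusted p under 0.05, and DESeq2 called 1 lower, at 7 days. One COBRA-like gene was at 0 in 4 of the 18 libraries, and the other xylem genes were detected in all. The part of xylem content in these peroxidase levels was not tested. Peroxidase 47 did not share that order at 3 days, when its PEG libraries ranged only from 6.93 to 10.3 FPKM.

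**Figure D3:**
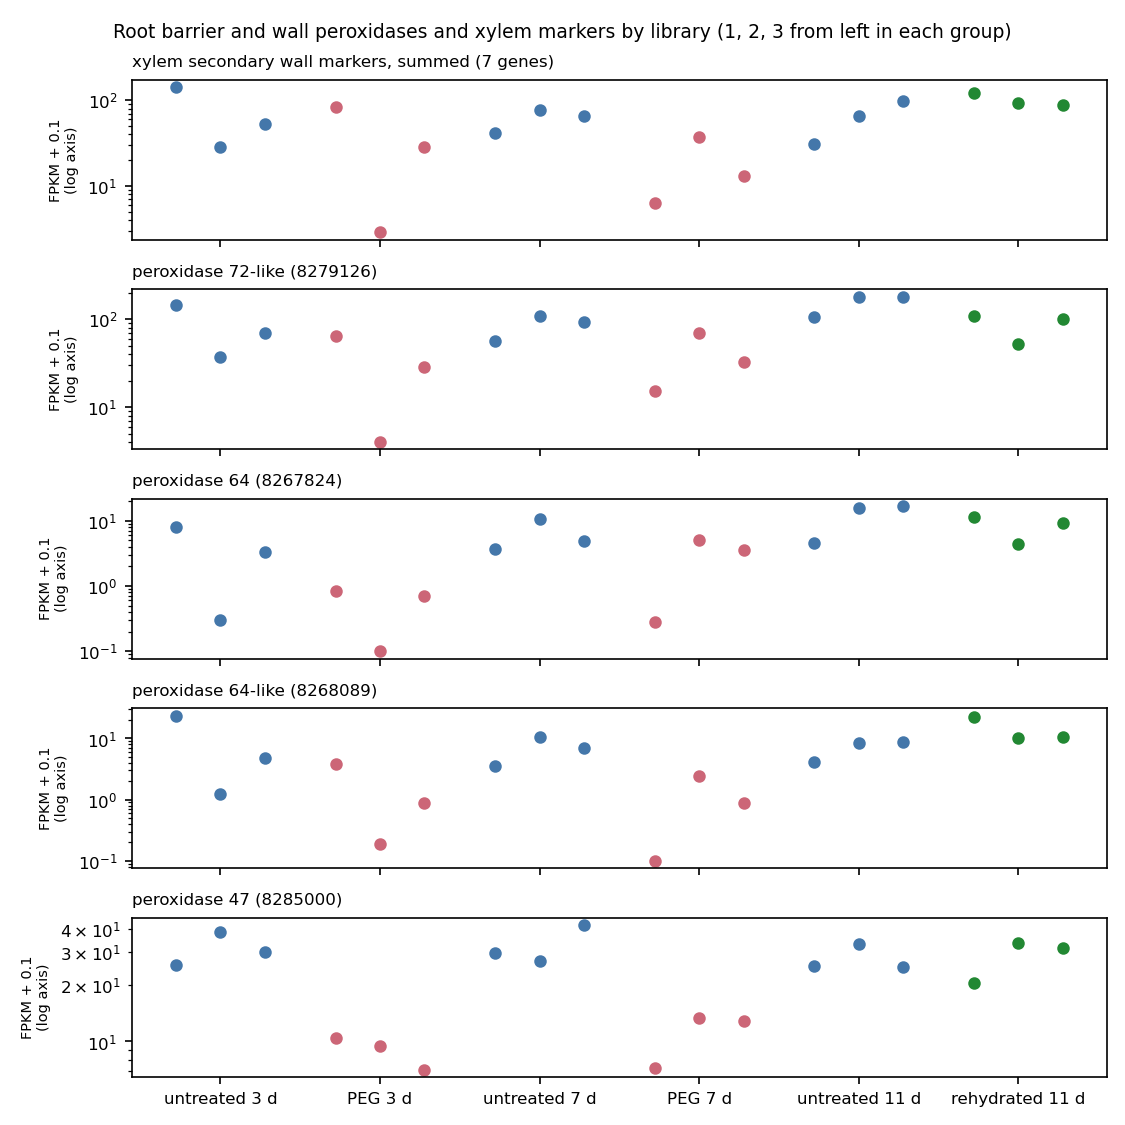
FPKM + 0.1 on a log axis by library for the summed xylem secondary wall markers and for peroxidase 72-like, peroxidase 64, peroxidase 64-like and peroxidase 47, with libraries 1, 2 and 3 from left to right in each group. PEG library 2 of 3 days is lowest of its group in the xylem sum (2.76 FPKM) and in the first 3 peroxidases, while peroxidase 47 lies between 6.93 and 10.3 FPKM in that group.

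Single libraries stood apart for much of the family. Among the class III genes with a group mean of at least 1 FPKM, PEG library 2 of 3 days was the lowest of its group for 33 of 45 and PEG library 1 the highest for 32. At 7 days PEG library 1 was lowest for 25 of 45 and PEG library 2 highest for 26. In the rehydrated group, library 2 was lowest for 34 of 53 and library 3 highest for 32. In untreated roots of 3 days, library 1 was highest and library 2 lowest for 26 of 52 each. These counts were made for class III genes only, so they do not show whether the libraries stood apart in the same way over all genes.

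The remaining members with numbers of wall genes were not called by edgeR. Peroxidase 4-like (ncbi_8259519) held 28.4, 73.7 and 36 FPKM in untreated and 22.0, 28.0 and 26.9 in PEG roots of 3 days (-0.41 ± 0.43). Peroxidase 25 (ncbi_8275889) held 25.8, 47 and 36.6 FPKM in untreated and 14.4, 28.1 and 25.2 in PEG roots of 3 days (-0.25 ± 0.33). Peroxidase 17-like (ncbi_8273525) held 8.67, 10.4 and 4.58 FPKM and 0.96, 4.68 and 2.58 under PEG (-1.07 ± 0.54, edgeR adjusted p = 0.16), and limma at an offset of 1 called it (-1.31, adjusted p = 0.041). The FPKM ranges of 4-like lay just apart but overlapped on the TMM scale, and those of the other genes overlapped. Peroxidase 66 (ncbi_8258320), which shares its number with an Arabidopsis gene linked to vessels, held 0.49, 1.43 and 1.17 FPKM at 7 days and 0.43, 0.05 and 0.12 under PEG (-2.04 ± 0.89, edgeR adjusted p = 0.18).

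The family also held members that stood higher under PEG, with 0 called by edgeR. Lignin-forming anionic peroxidase-like (ncbi_8283279), named after an enzyme of tobacco that couples lignin monomers, held 1.91, 2.12 and 0.23 FPKM in untreated and 4.66, 4.14 and 3.46 in PEG roots of 3 days. Its groups did not overlap, and the change of 1.99 ± 0.71 just missed the threshold (edgeR adjusted p = 0.054). It was called in DESeq2 (2.04, adjusted p = 0.019) and in edgeR with DESeq2's size factors (2.02, adjusted p = 0.0499). Another gene of that name (ncbi_8265433) was called by edgeR without untreated library 2 of 3 days (2.83, adjusted p = 0.041), beside an adjusted p of 0.21 with all libraries. After 7 days the first of these genes (ncbi_8283279) held 0.21, 0.96 and 0.89 FPKM without and 2.24, 1.72 and 1.84 with PEG (1.75 ± 0.77, edgeR adjusted p = 0.19). At 7 days the groups of ncbi_8265433 overlapped, at 0.31, 0.41 and 2.02 FPKM without and 1.58, 0.32 and 1.19 with PEG. Both genes were singled out after their values were seen.

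**Figure D4:**
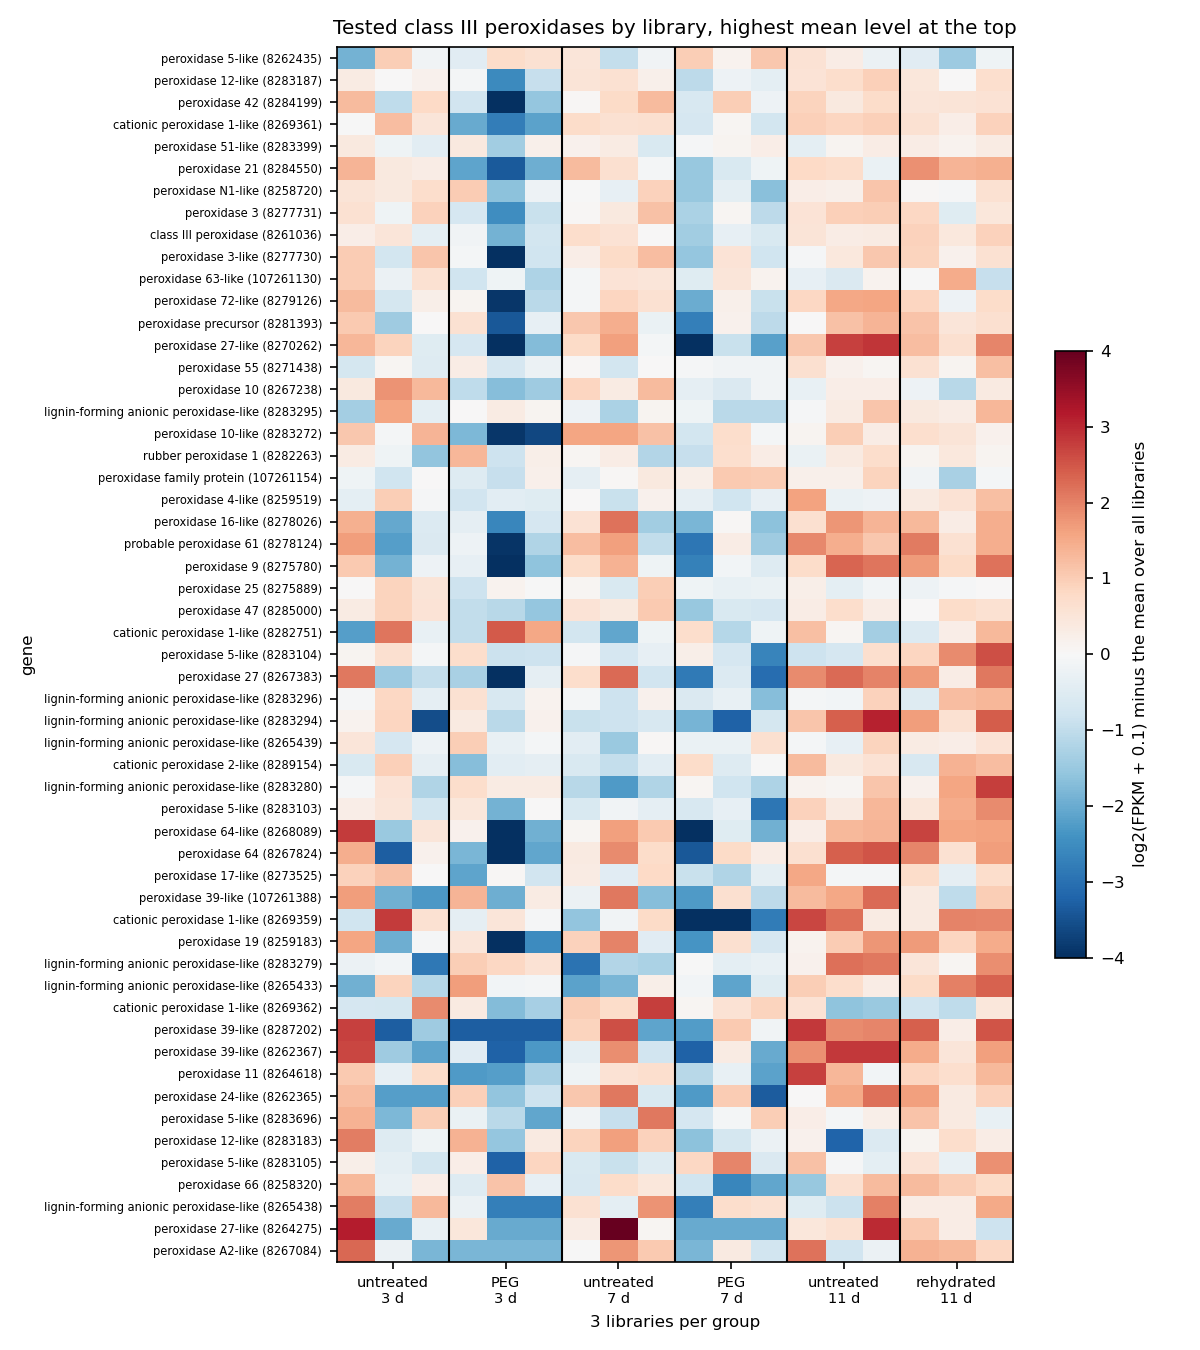
Heat map of the 55 tested class III peroxidases (rows, highest mean level at the top) in the 18 libraries (columns in 6 groups), showing log2(FPKM + 0.1) minus the gene's mean over all libraries. Blue cells, below the mean, gather in the PEG groups of 3 and 7 days, darkest in PEG library 2 of 3 days, and red cells gather in the groups of 11 days.

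At 7 days of PEG, peroxidase 47 was the 1 gene called among the 55 class III genes, or 1.82% beside 4.05% of all genes tested, of which 1.46% were lower and 2.59% higher. The 0 class III genes called higher stood beside 17 with an unadjusted p under 0.05 in either direction, and DESeq2 called 0 members higher and 5 lower, with 10.5% of all genes called. The median log2 change was -0.95 in class III and -0.06 over all genes, with 42 class III genes below 0 and 13 above. Without untreated library 2 of 7 days the median over the 60 members, -0.90, was -0.54. On the TMM scale, 12 of the 55 had all PEG libraries below all untreated ones (21.8%) and 6 above (10.9%), where all genes gave 14.9% and 15.2%. At 3 days the same counts were 7 lower (12.7%) and 2 higher (3.64%), beside 18.6% and 17.4% of all genes.

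The PEG effects of 7 and 3 days were compared directly in 1 model. edgeR called 0 of the 60 members, beside 0.236% of all genes, with 5 at an unadjusted p under 0.05. DESeq2 called 1 member, with 1.55% of all genes called, and limma on log2 FPKM called 0. The member called by DESeq2 was cationic peroxidase 1-like (ncbi_8269361), whose decrease was 1.64 smaller on the log2 scale at 7 than at 3 days (adjusted p = 0.021). In edgeR the same difference was 1.67 ± 0.44 (adjusted p = 0.13). For peroxidase 10-like (ncbi_8283272) it was 2.11 ± 0.72 (edgeR adjusted p = 0.28) and for peroxidase 47 0.03 ± 0.40 (edgeR adjusted p = 0.99). The median difference was -0.03 in class III and 0.01 over all genes.

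After 4 days without PEG, edgeR called 0 of the 60 members against untreated roots of 11 days, beside 0.0124% of all genes. Only 4 members had an unadjusted p under 0.05, and both DESeq2, which called 0.361% of all genes, and limma called 0 members. The median log2 change was -0.14 in class III and 0.00 over all genes. The member with the largest increase was another peroxidase 5-like (ncbi_8283104), singled out after its values were seen. It held 25.1, 50.8 and 81.4 FPKM in rehydrated and 7.60, 8.54 and 21.7 in untreated roots, without overlap in FPKM but overlapping on the TMM scale (1.93 ± 0.66, edgeR adjusted p = 0.38). On the TMM scale 4 class III genes had all rehydrated libraries below all untreated ones (7.27%) and 2 above (3.64%), beside 10.6% and 7.27% of all genes.

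The rehydration effect was set against the PEG effect of 7 days in the same model. edgeR called 0 of the 60 members, beside 0.671% of all genes, with 10 at an unadjusted p under 0.05. DESeq2 called 2 higher and 1 lower, with 5.86% of all genes called, and limma called 0. The higher ones were peroxidase 21 and peroxidase 47 (1.30, DESeq2 adjusted p = 0.0498), and the lower one was a peroxidase family protein (ncbi_107261154, -1.99, DESeq2 adjusted p = 0.011). That gene held 46.6, 82.6 and 80.1 FPKM under PEG at 7 days beside 30.6, 40.7 and 52.1 without, and 36.3, 16.1 and 37.5 after rehydration beside 45.9, 45.6 and 74.3. The median difference was 0.67 in class III and 0.04 over all genes. Over the 60 members it was 0.58, and it was 0.93 with library totals, 0.31 without untreated library 3 of 7 days and 0.92 without PEG library 2 of 7 days. Over all genes tested the median was 0.35 with library totals, 0.01 without that untreated library and 0.04 without that PEG library. Both effects have untreated groups of their own.

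**Figure D5:**
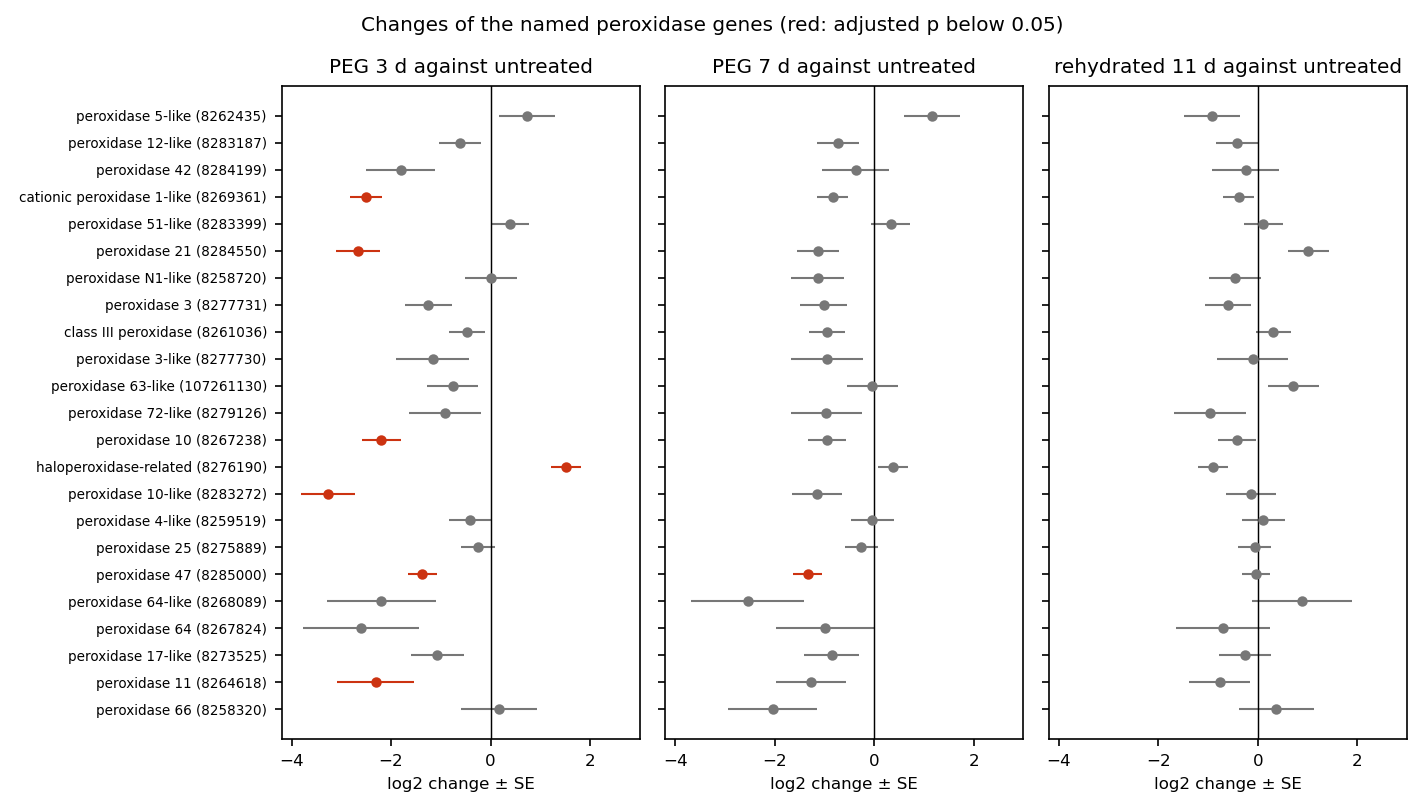
Log2 changes with their SE from edgeR for the named and tested peroxidase genes in PEG roots of 3 days, PEG roots of 7 days and rehydrated roots, each against untreated roots of the same day, with called genes in red. Red points are at 3 days for 7 genes and at 7 days for peroxidase 47, and no gene is red after rehydration.

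Untreated roots were compared over time. edgeR called 0 of the 60 members between 7 and 3 days, beside 0.0% of all genes, with 2 at an unadjusted p under 0.05. Between 11 and 3 days it called 0, beside 0.0311% of all genes, with 3 at an unadjusted p under 0.05. DESeq2 and limma called 0 members in both comparisons. The median change was 0.08 in class III at 7 days and 0.30 at 11 days, where all genes stood at 0.00 both times. By group means on the TMM scale, the highest level of 20 of the 55 class III genes (36.4%) lay in untreated roots of 11 days, where 11.5% of all genes had theirs. The lowest level lay in PEG roots of 3 days for 20 (36.4%, beside 30.8% of all genes) and in those of 7 days for 18 (32.7%, beside 18.1%). Only 4 (7.27%) had their highest level in PEG roots of 3 days, beside 24.9% of all genes.

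The 7 members outside class III were read apart. Vanadium-dependent haloperoxidases use hydrogen peroxide to oxidise halides, and their fold is shared with acid phosphatases. One haloperoxidase-related gene (ncbi_8276190) was the peroxidase-named gene that edgeR called higher. It held 31.1, 38.9 and 45.5 FPKM in untreated and 54.8, 124 and 69.1 in PEG roots of 3 days, without overlap (1.52 ± 0.30, edgeR adjusted p = 0.0029). At 7 days it held 40.7, 43.8 and 46.5 FPKM without and 51.6, 44.3 and 47.3 with PEG (0.38 ± 0.29). After rehydration it held 28.5, 23.9 and 30.7 FPKM beside 38.4, 49.2 and 56.2 in untreated roots, below all of them but not called (-0.90 ± 0.30, edgeR adjusted p = 0.37). The other 4 tested were not called in any comparison by edgeR or DESeq2, with changes at 3 days between -1.72 and 0.87. The lowest (ncbi_8263522) was called by edgeR without PEG library 1 of 3 days (-3.89, adjusted p = 0.039) and by limma at an offset of 0.1 (-2.43, adjusted p = 0.046).

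Genes that work with these enzymes in the wall were counted by product name. The share of all genes tested that edgeR called was 11.7% higher and 11.4% lower at 3 days, and 2.59% and 1.46% at 7 days. NADPH oxidases make the superoxide from which wall hydrogen peroxide arises, and 2 of the 6 tested fell at 3 days, with 0 higher and a median of -1.12, or 4 lower with library totals as the scaling. They were respiratory burst oxidase homolog protein E (ncbi_8259058, -2.19 ± 0.50) and protein C-like (ncbi_8275460, from 24.0 ± 6.63 to 7.52 ± 2.09 FPKM, SD, n = 3, -1.23 ± 0.33). Laccases couple lignin monomers with oxygen in place of peroxide, and 8 of 24 fell with 0 higher (median -1.67), where DESeq2 called 8 lower and 1 higher. Among them laccase-14-like (ncbi_8269750) went from 57.4 ± 14.4 to 7.00 ± 2.32 FPKM (SD, n = 3), a change of -2.59 ± 0.38, and laccase-12-like (ncbi_8272100) changed by -4.56 ± 0.97. At 7 days edgeR called 0 of the laccases (median -1.50), with 10 at an unadjusted p under 0.05 and 4 called lower by DESeq2. It called 0 of the NADPH oxidases then (median -0.39), with 0 at an unadjusted p under 0.05 and 0 called by DESeq2.

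Enzymes that make the monomers went both ways at 3 days. Of 48 tested, 7 rose and 10 fell (median -0.59), or 5 and 18 with library totals. A cinnamyl-alcohol dehydrogenase family protein (ncbi_8260964) rose by 5.70 ± 0.64, from 6.23 ± 1.03 to 240.2 ± 24.2 FPKM (SD, n = 3), and cinnamoyl-CoA reductase 1 (ncbi_8289802) fell by 2.95 ± 0.61. At 7 days edgeR called 0 higher and 5 lower, with 19 at an unadjusted p under 0.05, and DESeq2 called 2 higher and 8 lower. Among the lower ones were 4-coumarate--CoA ligase 1-like (ncbi_8280301), which fell by 2.27 ± 0.47, and caffeoyl-CoA O-methyltransferase 1 (ncbi_8288340), which fell by 1.93 ± 0.45. The ligase activates hydroxycinnamic acids, and the transferase methylates the ring of the monomer precursor.

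Of 19 extensins, 3 fell and 0 rose at 3 days (median -0.60), or 6 and 0 with library totals. The proline-rich extensin-like protein EPR1 (ncbi_8270508) went from 4793 ± 1661 to 1472 ± 485 FPKM (SD, n = 3), a change of -1.27 ± 0.37, and leucine-rich repeat extensin-like protein 6 (ncbi_8280867) fell by 1.84 ± 0.36. Of 21 genes for Casparian strip membrane proteins and their relatives, 4 rose and 4 fell (median -0.27), or 3 and 6 with library totals. CASP-like protein 1F2 (ncbi_8275516) changed by 4.68 ± 0.71 and CASP-like protein 2D1 (ncbi_8283926) by -4.0 ± 1.22. Among 10 dirigent proteins, which steer the coupling of phenolics, dirigent protein 22-like (ncbi_8264683) rose by 2.41 ± 0.63 at 3 days and by 2.91 ± 0.66 at 7 days, and edgeR called no other at either time. With library totals as the scaling 1 dirigent gene was also lower at 3 days.

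Enzymes that handle hydrogen peroxide inside the cell were counted in the same way. Of 8 catalases and ascorbate peroxidases 1 rose and 1 fell at 3 days (median 0.56, or 0.12 with library totals). Catalase isozyme 1 (ncbi_8273613) rose from 202 ± 63.7 to 632 ± 62.4 FPKM (SD, n = 3), by 2.09 ± 0.31, and catalase isozyme 2 (ncbi_107261240) fell by 2.17 ± 0.72. Of 8 superoxide dismutases, which make hydrogen peroxide from superoxide, 1 rose (ncbi_8275247, 1.21 ± 0.27). The median of these was 0.27, or -0.17 with library totals. Over all genes tested at 3 days the median was -0.08, or -0.52 with library totals. After rehydration edgeR and DESeq2 called 0 of the 144 tested genes of these 8 lists, with 14 at an unadjusted p under 0.05.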

How the data were processed

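RNA was measured in 18 root libraries of 6 groups, assigned by the treatment labels. Estimated counts and FPKM per gene were deposited by the authors, per the file headers. Per the labels' protocols RNA was taken with Trizol and an mRNA kit, with no aligner, counter or build named there. At least 98.3% of the estimated counts were whole, and they were rounded. The titles and descriptions of the untreated libraries of 11 days point to different FPKM columns, so 3 columns were not used and FPKM of that group was computed from counts, totals and implied lengths, a step that gave 0.995 to 1.00 of the deposited FPKM elsewhere.

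Counts of all 18 libraries were fitted with 1 mean per group in edgeR 4.0.16 (R 4.3.3; quasi-likelihood, robust, TMM, genes filtered by group with a minimum count of 10 and total of 15), with 7 comparisons adjusted by Benjamini and Hochberg over 16085 genes (75.4%). TMM factors were 0.765 to 0.806 in PEG roots of 3 days and 1.04 to 1.10 in their untreated group. The SE is the size of the log2 change over the root of F. The scripts were tested on simulated data. Alternatives were DESeq2 1.42.0, its size factors, library totals, removal of the length trend, no filter, limma 3.58.1 on log2(FPKM + 1) or log2(FPKM + 0.1), only the libraries compared, a replicate block, a threshold of 0.01, and fits without 1 library each. The members and gene lists were chosen with earlier results of these data known. Genes were named when called, when among the 12 most abundant or when numbered after Arabidopsis genes of walls and lignin, and pathway genes when called at 2-fold or more, up to 4 per list and comparison. Further members outside this rule were named after their values were seen, among them members called only in another fit, members without enough counts and a pseudogene. The RefSeq table (ASM1957865v1) held 76 of the 79 members with NCBI numbers and was used for neighbours only.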

Additional observations from a re-analysis of the deposited data

How the results depend on the processing

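Of 136 refits of single called genes, 120 kept the call and 16 lost it, in peroxidase 11 at 3 days and peroxidase 47 at 7 days. Peroxidase 47, 21, 10, 10-like, cationic peroxidase 1-like and the haloperoxidase-related gene were called at 3 days in 17 of 17 settings. The count of 7 members called at 3 days was 13 with DESeq2, 12 with library totals, and 12 and 13 with limma at an offset of 1 and 0.1. It was 6 to 12 with 1 library left out (12 without untreated library 2, 11 without PEG library 1). Of all genes, 3712 of 16085 were called with all libraries, 4550 with DESeq2 and 5069 with library totals. Limma called 4739 and 5000 of 15910. Without untreated library 2 it was 3575 of all genes in edgeR, and 3966 without PEG library 1. At 7 days the count of 1 was 5 with DESeq2 and 3 with limma at either offset. It was 0 at an adjusted p below 0.01, 0 with only the libraries compared, and 0 to 1 with 1 library left out. Of all genes, 652 were called at 7 days with all libraries in edgeR, 1688 with DESeq2, and 849 and 799 with limma at an offset of 1 and 0.1. For the PEG effect of 7 against 3 days the count of 0 was 1 with DESeq2 and 0 to 1 with 1 library left out (peroxidase 10-like without PEG library 1 of 3 days). For rehydration against PEG at 7 days it was 3 with DESeq2 and 0 to 1 with 1 library left out (peroxidase 21 without untreated library 3 of 7 days). Counts stayed at 0 in every setting run for rehydration and for untreated roots over time. The cause was not tested. The median over the 60 members kept its sign at 3 and 7 days in the scalings and left-out-library fits run. After rehydration it was -0.14, and 0.05 with the length trend removed. For the PEG effect of 7 against 3 days it was -0.05, 0.12 with library totals, 0.33 without PEG library 1 of 3 days and -0.29 without PEG library 2 of 3 days. Over all genes tested the medians of these fits were 0.01, 0.20, 0.07 and 0.03 in the same order. For untreated roots of 7 against 3 days the median over the 60 members was 0.08, and -0.19 to 0.33 with 1 library left out.

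The labels name no pairing of libraries by replicate number. Deviations of same-numbered libraries correlated at 0.625, 0.501 and 0.0799 at 3 days, and at 0.047, 0.503 and -0.227 at 7 days. At 11 days the correlations were 0.164, -0.154 and -0.156. With the replicate block, 6 members were called at 3 days, 1 at 7 days and 1 (ncbi_107261154) for rehydration against PEG at 7 days, and 0 elsewhere. Of all genes, the block gave 3400, 541 and 124 calls in these comparisons. At 3 days each untreated library correlated best with its own number, a hint of pairing from the data and not the design. Only untreated library 2 did so at 7 days and only library 1 at 11 days. Among all genes at 3 days, 3712 were called (1883 higher, 1829 lower), 5069 with library totals (912 higher, 4157 lower) and 1128 with only the libraries compared.

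With 3 libraries a group, decreases of low genes were weakly resolved: SE exceeded 1 for peroxidase 64 and 64-like.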

Other observations

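The 20 members without enough counts for a test were read as counts. They took in 18 class III genes and 2 outside that class, the bromoperoxidase and 1 haloperoxidase-related gene. Peroxidase 20 (ncbi_8289058) had 49 counts over 11 libraries and peroxidase 7 (ncbi_107262128) 38 over 7 libraries, 15 of them in 1 library in either gene. A lignin-forming anionic peroxidase-like gene (ncbi_8265431) had 48 counts, of which 26 came from 1 library. Peroxidase 44 (ncbi_8286481), 13 (ncbi_8277851) and 60 (ncbi_8275454) had 12, 9 and 3 counts in all. Peroxidase 65-like (ncbi_8258115), a gene named class III peroxidase (ncbi_8272595) and a lignin-forming anionic peroxidase-like gene (ncbi_8265437) had 0 counts in all 18 libraries, as did the bromoperoxidase (ncbi_8260483).

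Low members with strong library differences were the hardest to place. Peroxidase 39-like (ncbi_8287202) was listed at 0 FPKM in all 3 PEG libraries of 3 days and at 6.58, 0 and 0.27 in untreated ones, so the groups overlapped. It was not called by edgeR (adjusted p = 0.063) and was called by DESeq2 (adjusted p = 0.0028), by edgeR with library totals (adjusted p = 0.037) and by edgeR without untreated library 2 (adjusted p = 0.034). A peroxidase 27-like gene (ncbi_8264275) was listed at 0 in all 3 PEG libraries of 7 days and at 0.40, 6.33 and 0.33 in untreated ones, with a call in DESeq2 (adjusted p = 0.013) but not in edgeR (adjusted p = 0.11). The other 27-like gene (ncbi_8270262) went from 51.9, 95.7 and 28.8 FPKM to 1.00, 16.2 and 6.62 at 7 days without overlap, and its change of -2.73 ± 0.90 was called in DESeq2 (-2.74, adjusted p = 0.014) but not in edgeR (adjusted p = 0.092). Peroxidase 5-like (ncbi_8283696), which RefSeq lists as a pseudogene, held 0.89, 0.46 and 0.18 FPKM under PEG at 3 days and 3.02, 0.24 and 2.25 in untreated roots.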
